A study of Mus musculus with 14 samples.

Results

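The genes described here encode enzymes of sterol and fatty acid synthesis and the proteins that control them, in splenic germinal centre B cells of mice with loss of both, 1 or no alleles of Crebbp. They form a list of 29 genes, each represented by the brightest of its probe sets that name a single gene, by the mean over 14 arrays. Of the 29 genes, 28 had such a probe set, and all 28 exceeded the expression filter described with the methods, out of 18193 genes with a single-gene probe set and 10225 above the filter. Acat2, a thiolase that makes acetoacetyl-CoA in the cytosol, had no probe set named to it alone here and has no value. By role, 6 measured members act in the mevalonate steps, 10 in the squalene and sterol steps and 8 in the fatty acid steps, and 4 are regulators or carry sterol between membranes.

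Each of 14 mice gave 1 Affymetrix mouse expression array, and values are log2 intensities. KO mice were Crebbpfl/fl Cg1-Cre (n = 5, 3 males), HET mice Crebbpfl/+ Cg1-Cre (n = 5, 2 males) and WT mice Crebbp+/+ Cg1-Cre (n = 4, 1 male). All groups carried Cg1-Cre, a deleter that acts in activated B cells, on a C57BL/6x129Sv background, and were 8 to 12 weeks old; the share of cells that had recombined was not measured here. Sheep red blood cells were given on days 0 and 5, and B220+CD95+PNA+ cells were sorted from each spleen on day 12. Crebbp encodes a lysine acetyltransferase that many transcription factors use as a coactivator, and the comparison asks how its dose alters transcription in these cells.

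Cells build cholesterol from acetyl-CoA through mevalonate, squalene and lanosterol. They build fatty acids from the same precursor through malonyl-CoA and then lengthen and desaturate them. The transcription factors SREBP-2 and SREBP-1, products of Srebf2 and Srebf1, are held in the endoplasmic reticulum by INSIG proteins while sterol is plentiful. When sterol runs low they are carried to the Golgi, cleaved and released to the nucleus, where they switch on most genes of both pathways, often together with the factor NF-Y. Dividing lymphocytes need both products for new membrane.

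Promoters of 5 members are shown here because the results on Fads2, Elovl6, Srebf2, Hmgcs1 and Nsdhl carry most of what follows, and because they differ in whether they hold the binding letters of NF-Y. Each is the 250 bases before the RefSeq transcript start on GRCm38.p6, 5′ to 3′ on the strand of the gene. Capitals mark CCAAT, the NF-Y box, on either strand (ATTGG where it lies on the opposite one), and TCACNCCAC, a core form of the sterol regulatory element, searched on both strands. The matches of the 2 motifs in these promoters do not overlap.
Fads2 (chr19:10101504-10101753, minus strand): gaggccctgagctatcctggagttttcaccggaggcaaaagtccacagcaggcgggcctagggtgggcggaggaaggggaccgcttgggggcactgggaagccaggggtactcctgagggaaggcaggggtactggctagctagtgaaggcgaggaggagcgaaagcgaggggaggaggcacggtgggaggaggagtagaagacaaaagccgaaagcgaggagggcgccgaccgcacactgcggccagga
Elovl6 (chr3:129532136-129532385, plus strand): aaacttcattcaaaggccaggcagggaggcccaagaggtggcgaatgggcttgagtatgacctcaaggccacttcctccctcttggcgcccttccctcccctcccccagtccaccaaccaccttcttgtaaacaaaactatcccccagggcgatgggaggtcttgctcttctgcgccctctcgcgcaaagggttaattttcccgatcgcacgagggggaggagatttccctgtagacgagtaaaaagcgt
Srebf2 (chr15:82147019-82147268, plus strand): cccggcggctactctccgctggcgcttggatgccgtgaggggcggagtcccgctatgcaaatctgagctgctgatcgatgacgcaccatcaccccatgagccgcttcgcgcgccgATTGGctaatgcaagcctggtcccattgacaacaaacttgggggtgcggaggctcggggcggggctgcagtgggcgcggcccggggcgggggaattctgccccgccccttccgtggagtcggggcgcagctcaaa
Hmgcs1 (chr13:119690101-119690350, plus strand): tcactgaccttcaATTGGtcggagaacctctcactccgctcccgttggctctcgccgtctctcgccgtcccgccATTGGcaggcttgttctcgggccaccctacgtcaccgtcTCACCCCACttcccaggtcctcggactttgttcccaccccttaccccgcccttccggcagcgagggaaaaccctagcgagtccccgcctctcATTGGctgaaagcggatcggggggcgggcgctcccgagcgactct
Nsdhl (chrX:72918271-72918520, plus strand): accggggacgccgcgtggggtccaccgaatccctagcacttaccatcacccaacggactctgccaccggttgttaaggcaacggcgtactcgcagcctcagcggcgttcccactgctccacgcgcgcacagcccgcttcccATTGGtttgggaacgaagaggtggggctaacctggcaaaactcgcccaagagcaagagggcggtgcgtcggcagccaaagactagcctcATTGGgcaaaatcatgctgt
Of the 29 members, 22 had an entry in the RefSeq promoter table. Dhcr7, Pmvk and Srebf1 had several windows, and any gene was counted as holding a motif if at least 1 of its windows did. The NF-Y box was present in 17 of the 22 members with an entry (77.3%), against 37.5% of all 27025 genes in the table. Among members of the mevalonate, squalene and sterol steps 13 of 14 held it, the exception being Acat2, and so did all 3 regulators with an entry, Srebf1, Srebf2 and Insig1. Of the fatty acid members with an entry 1 of 5 held it, Fasn, while Acly, Acaca, Elovl6 and Fads2 did not. The sterol element core in this form was found in 1 of 22 members, Hmgcs1, at 137 bases before the start, and in 1.22% of all genes. A match describes letters in the window, and a missing match says only that these letters are not in it.

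All 10 measured germinal centre B cell markers exceeded the expression filter, against 0 of 5 erythroid, 2 of 7 T cell and 3 of 11 macrophage and monocyte markers. The filter was also exceeded by 6 of 8 plasma cell and 3 of 5 dendritic cell markers. The 4 Crebbp probe sets had lower values in KO than in WT, by log2 changes of -0.86 to -0.30, and the position of these sets relative to the floxed exons was not tested. KO 3 stood slightly apart, its median correlation to the remaining mice being 0.979, where theirs were 0.984 to 0.990. Summed linear intensity of the germinal centre markers was 57899 to 62193 in KO, 61895 to 62957 in HET and 62723 to 65326 in WT. For naive and marginal zone B cell markers, of which 5 of 6 exceeded the filter and Ccr7 did not, the sum was 4200.5 to 5889.7 in KO, 5073 to 6378 in HET and 5909.8 to 6502 in WT. Both sums were lower in every KO mouse than in every WT mouse, each by a narrow gap between the nearest mice. Sums of dividing, plasma, T cell and macrophage markers overlapped. The dendritic cell sum was 1121.7 to 1674.9 in KO, 1494.5 to 1824.1 in HET and 1671.3 to 1864.3 in WT. Its KO and WT ranges thus overlapped only narrowly. Called marker genes in KO, named after their values were seen, were the germinal centre gene Rgs13 at -0.62 (SE 0.12, adjusted p = 0.0180, limma), the marginal zone gene Dtx1 at -0.41 (SE 0.10, adjusted p = 0.0496, limma) and the plasma cell gene Sdc1 at 0.81 (SE 0.19, adjusted p = 0.0404, limma). Sdc1 did not stand for its list, since 4 of 6 tested plasma cell markers were lower in KO, for a list median of -0.10. In the naive and marginal zone list 4 of 5 tested markers were lower, and the 1 higher marker, at 0.64, was not called. Of 10 tested germinal centre markers 8 were lower and 2 higher. Of all tested genes 2.44% were called in KO against WT, and 51.0% had a negative change. The part of these differences in the results that follow was not tested, and in cells measured in bulk, fewer cells of a type and less RNA per cell cannot be told apart.

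In KO mice, Fads2 was higher than in WT, at 1.33-fold (95% interval 1.20 to 1.47). It was 1 of 28 members to pass an adjusted p of 0.05, against 2.44% of all tested genes, so the share called among members was close to that of the array. At an unadjusted p under 0.05 it was 4 members, Fads2, Elovl6, Srebf2 and Scd2, or 14.3%, against 13.1%. Among members 17 had a positive change and 11 a negative one, with a median of 0.06, and the median over all tested genes was -0.00. Without KO 3 the median of the members was 0.03, and without KO 3 and WT 4 together it was 0.02, against 0.02 for all tested genes. The changes of members ran from -0.21 to 0.41. Tests were made with limma over all 14 arrays with sex as a covariate, with Benjamini-Hochberg adjustment across the 10225 tested genes. Members that did not pass are given by their estimates, since a p above the threshold does not show that the groups were alike.

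**Figure D1:**
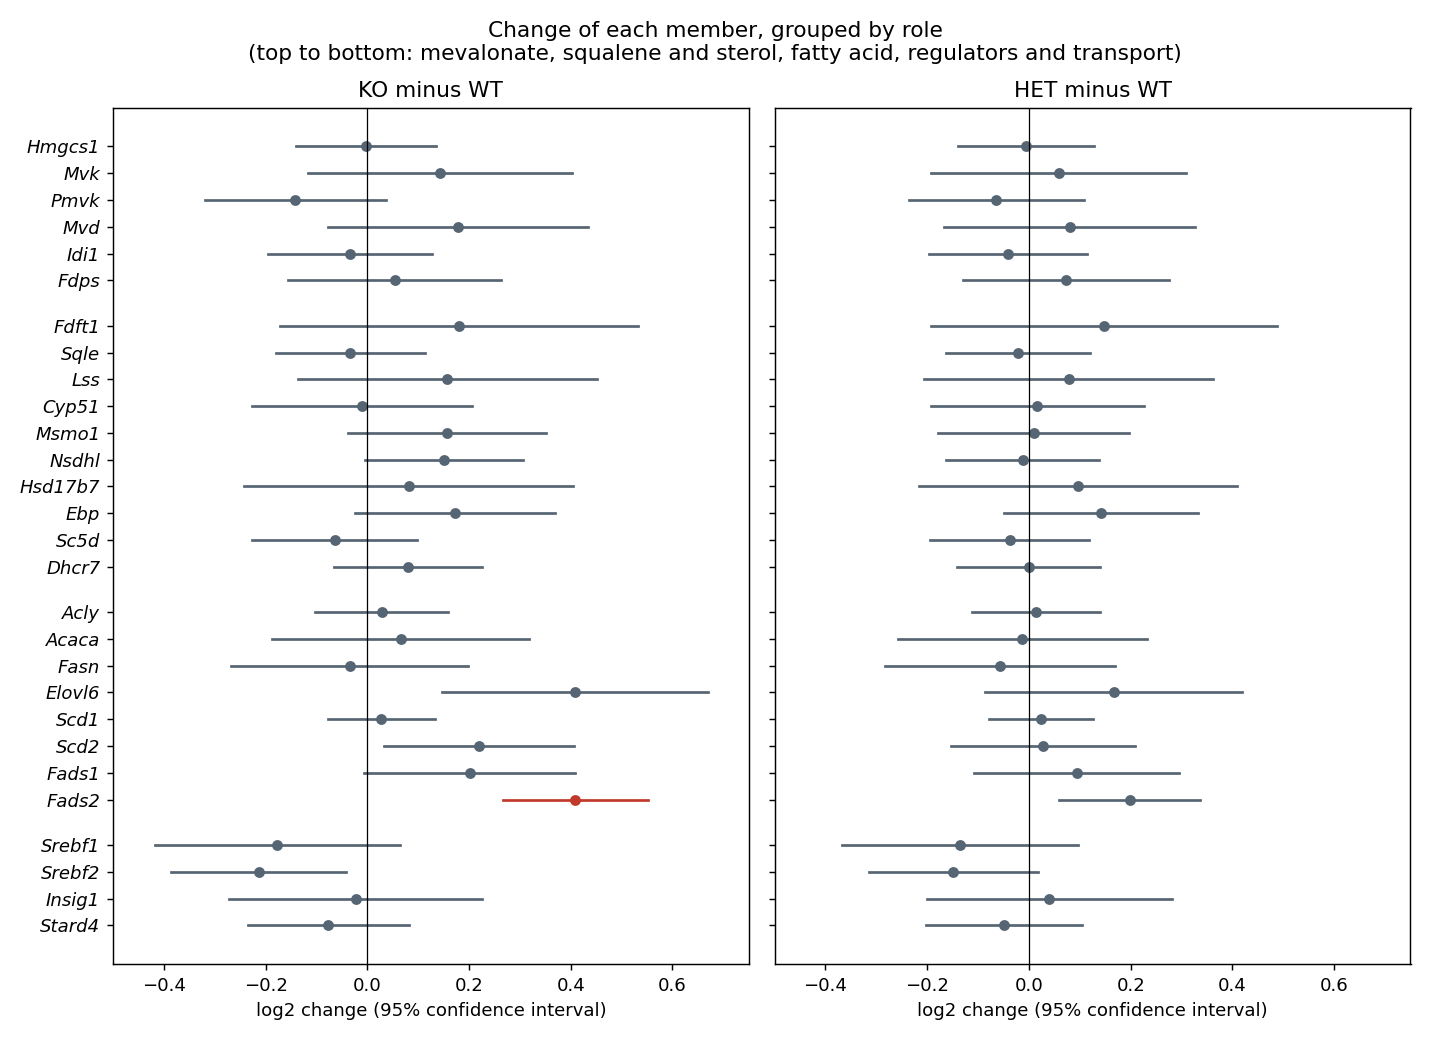
Log2 change of each of the 28 measured members in KO minus WT (left) and HET minus WT (right), with the 95% confidence interval from limma, grouped by role from the mevalonate steps at the top to regulators and transport at the bottom. Red marks Fads2 in KO, at 0.41, the 1 member that passed an adjusted p of 0.05; in HET no member passed.

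Among the 8 fatty acid members Fads2 passed and the other 7 did not. Fads2 encodes the delta-6 desaturase, which starts the conversion of dietary polyunsaturated fatty acids to longer ones. Its log2 intensity was 10.56, 10.39, 10.73, 10.82 and 10.60 in KO 1 to KO 5, 10.31, 10.40, 10.59, 10.42 and 10.53 in HET 1 to HET 5, and 10.38, 10.33, 10.30 and 10.10 in WT 1 to WT 4. Every KO value lay above every WT value, KO 2 only just, and HET values overlapped both groups. The KO change was 0.41 (SE 0.07, 95% interval 0.27 to 0.55, adjusted p = 0.00574, limma).

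Group means of Fads2 were 10.62 ± 0.16 in KO (SD, n = 5), 10.45 ± 0.11 in HET (SD, n = 5) and 10.28 ± 0.12 in WT (SD, n = 4). The trend per floxed allele was 0.20 (SE 0.03, adjusted p = 0.00335, limma), and Fads2 was the 1 member called in it, against 3.04% of all tested genes. In HET against WT the change was 0.20 (SE 0.06, adjusted p = 1.00, limma), and in KO against HET it was 0.21 (SE 0.06, adjusted p = 0.315, limma). Neither passed, although their unadjusted p of 0.00852 and 0.00410 were the smallest among members in those limma comparisons.

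Means of Fads2 were also higher in females than in males within each genotype, although single HET mice overlapped. Female means were 10.77 in KO (n = 2), 10.51 in HET (n = 3) and 10.34 in WT (n = 3). Male means were 10.52 in KO (n = 3) and 10.36 in HET (n = 2), and the 1 male WT mouse had 10.10. Within either sex all KO values lay above all WT values. The call held in all 14 fits that left out 1 array (limma adjusted p from 0.00416 to 0.0335). Fitting without sex (0.34, adjusted p = 0.0582, limma), using females only (0.43, adjusted p = 0.0788, limma) or omitting KO 3 and WT 4 together (0.40, adjusted p = 0.0769, limma) each brought its adjusted p above 0.05.

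The other Fads2 probe sets gave KO changes of 0.32 (SE 0.07, adjusted p = 0.0416, limma) and 0.42 (SE 0.10, adjusted p = 0.0533, limma), adjusted over 18883 probe sets. All 3 Fads2 probe sets had the same sign, but on the other sets some KO and WT mice overlapped.

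**Figure D2:**
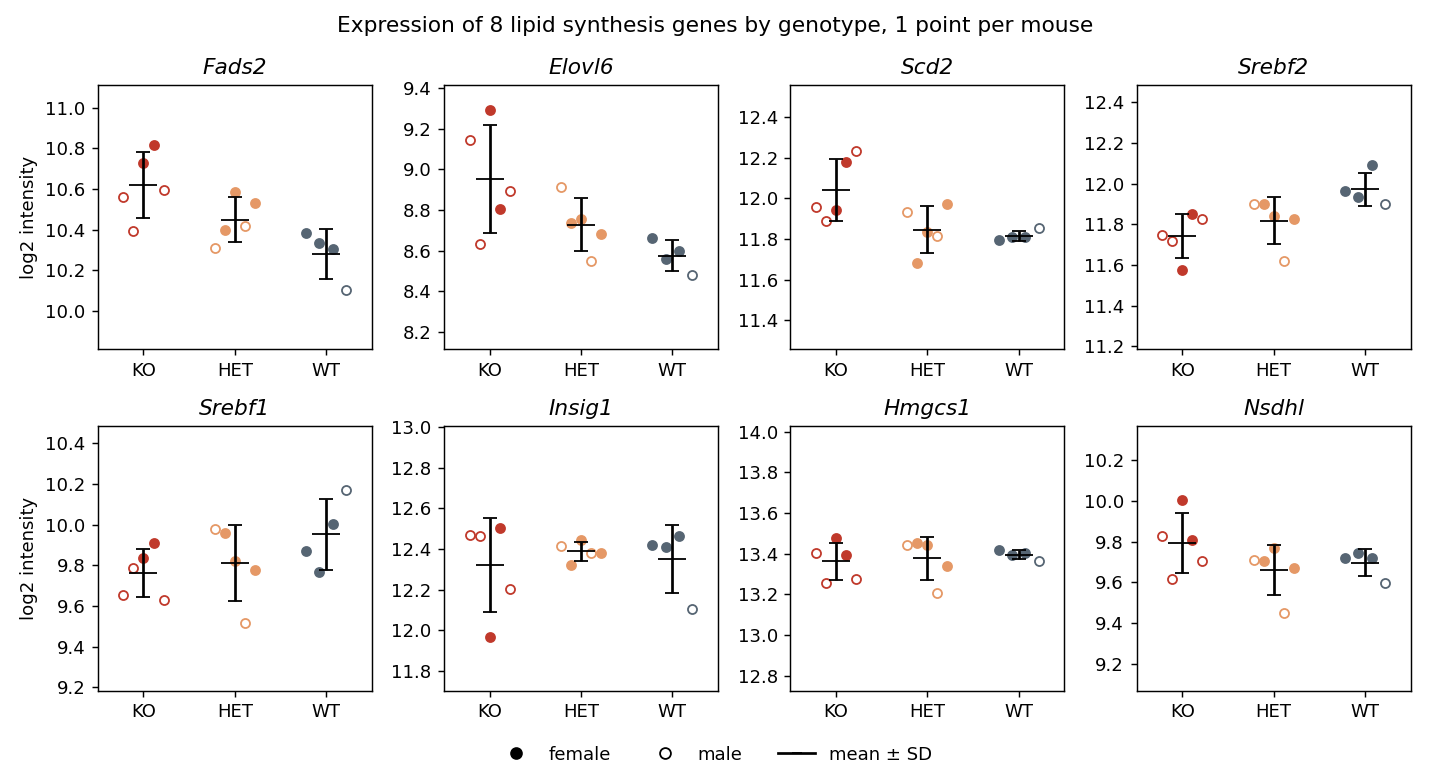
Log2 intensity of 8 members in each mouse, with KO left, HET in the middle and WT right; filled points are females, open points males, and bars give the mean ± SD of a group (axes start above 0, and each panel spans the same number of log2 units). Fads2 and Scd2 in KO lie above and Srebf2 in KO lies below every WT mouse, while the groups overlap in the other panels.

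Elovl6, the elongase that extends palmitate to stearate, had a point estimate as large as that of Fads2 with more scatter. Its values were 9.14, 8.63, 9.29, 8.81 and 8.89 in KO 1 to KO 5, 8.91, 8.74, 8.76, 8.55 and 8.68 in HET 1 to HET 5, and 8.66, 8.56, 8.60 and 8.48 in WT 1 to WT 4. KO 3 and KO 1 were the highest of all mice, and KO 2 lay among the WT values. Its KO change was 0.41 (SE 0.12, 95% interval 0.15 to 0.67, adjusted p = 0.110, limma), and it was smaller without KO 3 (0.30, adjusted p = 0.228, limma), with array weights (0.23, adjusted p = 0.366, limma) and without KO 3 and WT 4 together (0.23, adjusted p = 0.479, limma). The other Elovl6 probe sets gave 0.39 (SE 0.13) and 0.23 (SE 0.13), the same sign. Elovl6 differed by 0.24 (SE 0.11, adjusted p = 0.773, limma) between KO and HET and by 0.17 (SE 0.12, adjusted p = 1.00, limma) between HET and WT.

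Scd2, a stearoyl-CoA desaturase that makes monounsaturated fatty acids, had 11.96, 11.89, 11.94, 12.18 and 12.23 in KO 1 to KO 5, 11.94, 11.68, 11.83, 11.81 and 11.97 in HET 1 to HET 5, and 11.80, 11.81, 11.81 and 11.85 in WT 1 to WT 4. All KO values lay above the tightly grouped WT values, and HET values overlapped both. Such a separation upward was seen for 2 of 28 members, Fads2 and Scd2, against 2.87% of all tested genes. The other Scd2 probe sets gave KO changes of 0.20 (SE 0.22) and 0.24 (SE 0.17), and on both the KO and WT mice overlapped. The KO change of Scd2 was 0.22 (SE 0.09, 95% interval 0.03 to 0.41, adjusted p = 0.276, limma). In KO against HET it was 0.19 (SE 0.08, adjusted p = 0.675, limma) and in HET against WT 0.03 (95% interval -0.15 to 0.21). Fads1, the delta-5 desaturase that acts after Fads2, differed by 0.20 (SE 0.10, adjusted p = 0.403, limma) in KO and by 0.09 (95% interval -0.11 to 0.29) in HET.

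Acly, which releases acetyl-CoA from citrate, differed by 0.03 (95% interval -0.10 to 0.16) between KO and WT. Acaca, the acetyl-CoA carboxylase, differed by 0.07 (95% interval -0.19 to 0.32) and Fasn, the synthase, by -0.03 (95% interval -0.27 to 0.20). Scd1, another stearoyl-CoA desaturase, differed by 0.03 (95% interval -0.08 to 0.13). The probe sets used for Scd1 and Acly lie at the 99.3 and 99.0 percentile of probe set means, with an SD over all mice of 0.03 and 0.06, among the smallest of the members. The dimmer probe set of Scd1 gave -0.21 in KO (SE 0.12, adjusted p = 0.597, limma). The dimmer Acly sets above the filter gave -0.09, -0.15 and 0.07.

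Of the 8 fatty acid members, 7 had positive changes in KO against WT with a median of 0.13, where 49.0% of all tested genes were positive. For Acly and Scd1 the sign in this count depended on the probe set, as given above. In KO against HET all 8 were positive with a median of 0.09, where 47.3% of all tested genes were. With 1 array left out, 6 to 8 of the 8 were positive in KO against WT, and the median ran from 0.10 to 0.21, the highest without WT 4.

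All 4 regulators and transport genes had negative estimates in KO against WT, where 51.0% of all tested genes were negative. None of the 4 passed, and with 1 array left out 3 to 4 were negative. Srebf2, encoding the main activator of sterol genes, had 11.75, 11.72, 11.58, 11.85 and 11.83 in KO 1 to KO 5, 11.90, 11.90, 11.84, 11.62 and 11.82 in HET 1 to HET 5, and 11.96, 11.93, 12.09 and 11.90 in WT 1 to WT 4. Each KO mouse lay below every WT mouse, HET 4 was the lowest of its group, and HET and WT met at 11.90. The KO change was -0.21 (SE 0.08, 95% interval -0.39 to -0.04, adjusted p = 0.237, limma), and it was smaller without KO 3 (-0.14, adjusted p = 0.409, limma).

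The other Srebf2 probe set gave -0.30 in KO (SE 0.09, adjusted p = 0.165, limma), again with every KO mouse below every WT mouse. On the probe sets tested, Srebf2 was 1 of 28 members with this separation downward, against 3.65% of all tested genes. In HET against WT the Srebf2 change was -0.15 (SE 0.08, adjusted p = 1.00, limma). The KO and HET mice differed by -0.06 (95% interval -0.22 to 0.09).

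Srebf1, whose products act mainly on fatty acid genes, had 9.65, 9.78, 9.83, 9.91 and 9.63 in KO 1 to KO 5, 9.98, 9.96, 9.82, 9.52 and 9.78 in HET 1 to HET 5, and 9.87, 9.77, 10.00 and 10.17 in WT 1 to WT 4. The groups overlapped, with WT 4 the highest and HET 4 the lowest mouse. The KO change was -0.18 (SE 0.11, adjusted p = 0.574, limma), and it was close to 0 without WT 4 (-0.03, adjusted p = 0.942, limma) and in females only (-0.01).

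Insig1, which retains SREBP in the endoplasmic reticulum and is itself an SREBP target, had 12.47, 12.46, 11.97, 12.50 and 12.20 in KO 1 to KO 5, 12.41, 12.32, 12.44, 12.38 and 12.38 in HET 1 to HET 5, and 12.42, 12.41, 12.46 and 12.10 in WT 1 to WT 4. KO 3, WT 4 and KO 5 were the low mice, and the other mice lay close together. The KO change was -0.02 (SE 0.12, 95% interval -0.27 to 0.23, adjusted p = 0.973, limma). Its sign depended on single mice, being positive without KO 3 (0.12, adjusted p = 0.586, limma) and negative without WT 4 (-0.16, adjusted p = 0.643, limma). Stard4, a carrier of cholesterol between membranes, differed by -0.08 (95% interval -0.24 to 0.08) in KO. The dimmer Stard4 probe sets gave 0.01 and 0.04.

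No member of the mevalonate steps passed, and their KO changes ran from -0.14 to 0.18 with a median of 0.03. Hmgcs1, the HMG-CoA synthase at the entry of the pathway, had 13.40, 13.26, 13.48, 13.39 and 13.28 in KO 1 to KO 5, 13.44, 13.45, 13.44, 13.21 and 13.34 in HET 1 to HET 5, and 13.42, 13.39, 13.40 and 13.37 in WT 1 to WT 4. The WT mice sat inside the range of both other groups. The KO change was -0.00 (SE 0.06, 95% interval -0.14 to 0.14, adjusted p = 0.995, limma), an interval of 0.907- to 1.10-fold.

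That Hmgcs1 probe set lies at the 99.4 percentile of brightness. The dimmer Hmgcs1 sets gave -0.09, -0.10, -0.30 and -0.36 in KO. The last, on the dimmest set, was lower in every KO mouse than in every WT mouse (SE 0.15, adjusted p = 0.410, limma). With the mean of all 5 sets in place of the brightest, the Hmgcs1 change did not pass either (-0.17, adjusted p = 0.368, limma).

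Pmvk, the phosphomevalonate kinase, had 10.93, 10.86, 11.06, 10.94 and 10.85 in KO 1 to KO 5, 11.15, 11.13, 11.13, 10.74 and 10.96 in HET 1 to HET 5, and 11.17, 11.05, 11.11 and 11.08 in WT 1 to WT 4. All KO mice but KO 3 lay below the WT mice, and HET 4 was the lowest of all. For Pmvk the KO change was -0.14 (SE 0.08, adjusted p = 0.529, limma). Mvd, the decarboxylase that yields isopentenyl diphosphate, had 9.17, 8.70, 9.13, 8.97 and 9.03 in KO 1 to KO 5, 9.11, 8.87, 9.15, 8.64 and 8.83 in HET 1 to HET 5, and 8.78, 9.01, 8.88 and 8.75 in WT 1 to WT 4. Its groups overlapped and the KO change was 0.18 (SE 0.12, adjusted p = 0.606, limma), with 0.03 under array weights and 0.11 without KO 3 and WT 4. For Mvk, the mevalonate kinase, Idi1, the isopentenyl diphosphate isomerase, and Fdps, the farnesyl diphosphate synthase, the KO changes were 0.14, -0.03 and 0.05.

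No member of the squalene and sterol steps passed. In KO 7 of 10 changes were positive with a median of 0.12, where 49.0% of all tested genes were positive. Nsdhl, a sterol dehydrogenase that helps to remove methyl groups from lanosterol, had 9.83, 9.61, 10.00, 9.81 and 9.71 in KO 1 to KO 5, 9.71, 9.70, 9.77, 9.45 and 9.67 in HET 1 to HET 5, and 9.72, 9.75, 9.72 and 9.60 in WT 1 to WT 4. KO 3, KO 1 and KO 4 were the highest of all mice, and KO 2 and KO 5 lay within the WT range. Its change was 0.15 (SE 0.07, adjusted p = 0.399, limma) in KO against WT and 0.16 (SE 0.07, adjusted p = 0.653, limma) in KO against HET. The KO value of Nsdhl was 0.07 with array weights, 0.10 without the sex term and 0.10 without KO 3 and WT 4.

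Ebp, a sterol isomerase, had 10.49, 10.37, 10.26, 10.35 and 10.50 in KO 1 to KO 5, 10.31, 10.40, 10.52, 10.26 and 10.33 in HET 1 to HET 5, and 10.37, 10.34, 10.00 and 10.18 in WT 1 to WT 4. WT 3 was the lowest mouse and the groups overlapped. The change was 0.17 (SE 0.09, adjusted p = 0.463, limma) in KO and 0.14 (SE 0.09, adjusted p = 1.00, limma) in HET. Without WT 3 the Ebp values were 0.10 in KO and 0.07 in HET, and in females only the KO value was 0.07. For Sqle, the squalene epoxidase, the KO change was -0.03 (95% interval -0.18 to 0.11), and for Cyp51, the lanosterol demethylase, it was -0.01 (95% interval -0.23 to 0.21).

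Fdft1, the squalene synthase, had 0.18 (95% interval -0.17 to 0.53) and Lss, the lanosterol synthase, 0.16 (95% interval -0.14 to 0.45), both with wide intervals. Msmo1, a methyl sterol oxidase, differed by 0.16 (95% interval -0.04 to 0.35). Hsd17b7, a sterol ketoreductase, Sc5d, a sterol desaturase, and Dhcr7, a reductase at the last step to cholesterol, had KO changes of 0.08, -0.06 and 0.08. The dimmer sets of Fdft1 and Hsd17b7 above the filter had the opposite sign, at -0.08 and -0.20. Those of Lss (0.17 and 0.05) and Msmo1 (0.34) were positive. Across the 28 members, 30 further probe sets exceeded the filter, and 22 of them had the sign of the set used. Of these 30, 1 had an adjusted p under 0.05 in KO (limma), the Fads2 set described above.

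In HET against WT, 0 of 28 members and 0% of all tested genes passed in limma. At an unadjusted p under 0.05 it was 1 member, Fads2, and 2.74% of all tested genes. HET changes of members ran from -0.15 to 0.20. In KO against HET, 0 of 28 members and 0.264% of all tested genes passed in limma. At an unadjusted p under 0.05 it was 4 members, Fads2, Nsdhl, Scd2 and Elovl6, or 14.3%, against 6.39% of all tested genes. All 4 were higher in KO, and 2.55% of all tested genes were higher in KO by that rule. KO against WT and HET against WT use the same WT mice.

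As a mean per mouse, with each member centred on its mean over the 14 arrays, the values of the 3 genotypes overlapped. The means were 0.05, -0.08, 0.12, 0.05 and -0.05 in KO 1 to KO 5, 0.05, 0.01, 0.10, -0.17 and -0.03 in HET 1 to HET 5, and -0.01, -0.01, 0.04 and -0.08 in WT 1 to WT 4. KO 3 was the highest mouse and HET 4 the lowest, and sex, which is spread unevenly over the groups, is not adjusted for in these means. Group means were 0.02 ± 0.08 in KO, -0.01 ± 0.10 in HET and -0.02 ± 0.05 in WT (SD, n = 5, 5 and 4). KO minus WT was 0.03 on this scale, while the changes fitted with sex averaged 0.07 over the 28 members. No test is given for a mean over chosen genes.

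By role, the fatty acid members averaged 0.08 ± 0.11 in KO, -0.02 ± 0.07 in HET and -0.07 ± 0.02 in WT (SD, n = 5, 5 and 4), and KO 2 was the 1 KO mouse within the WT range. Regulators and transport averaged -0.06 ± 0.08 in KO, -0.00 ± 0.09 in HET and 0.08 ± 0.07 in WT. The squalene and sterol steps averaged 0.02 ± 0.14 in KO, -0.00 ± 0.12 in HET and -0.02 ± 0.08 in WT. The mevalonate steps averaged -0.01 ± 0.09 in KO, 0.00 ± 0.16 in HET and 0.00 ± 0.06 in WT, with the widest spread in HET.

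**Figure D3:**
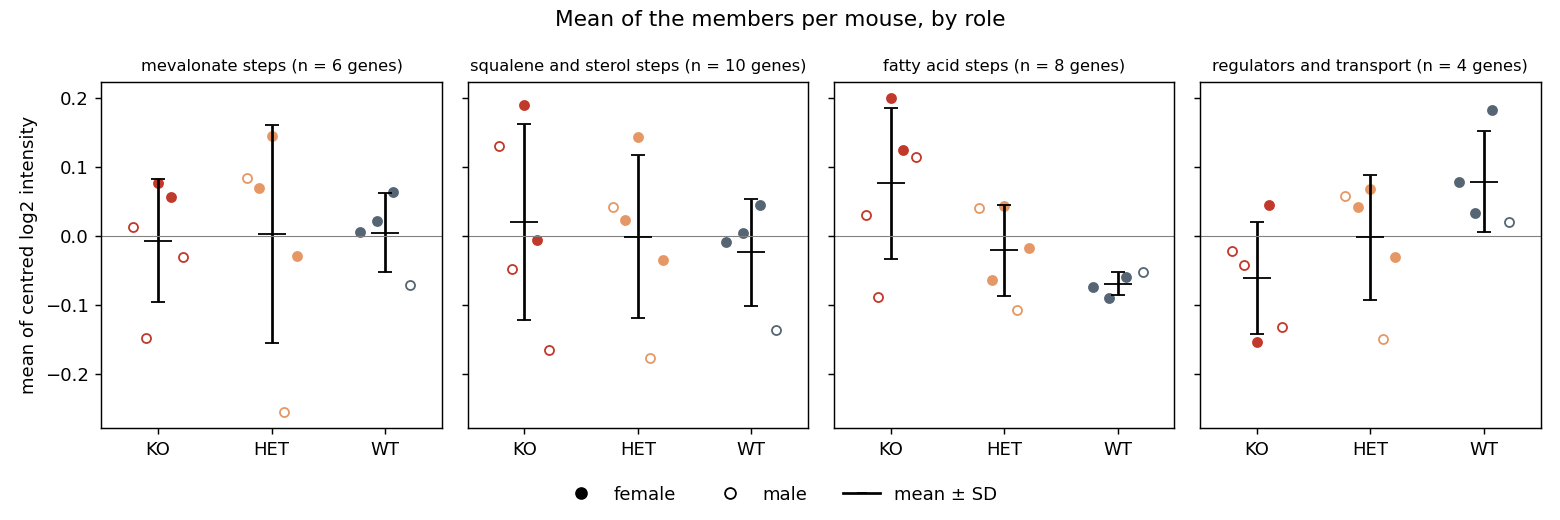
Mean of the centred log2 intensities of the members of each role in each mouse, with KO left, HET in the middle and WT right; filled points are females, open points males, and bars give the mean ± SD of a group. Fatty acid members spread from -0.09 to 0.20 in KO and from -0.09 to -0.05 in WT, and HET 4 is the lowest mouse for the mevalonate steps at -0.26.

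Within genotypes, most mevalonate and sterol genes varied together from mouse to mouse. After group and sex means were removed, the 120 pairs among these 16 members had a median Pearson correlation of 0.47 over the 14 mice, against 0.04 for all pairs of tested genes. A correlation above 0.5 was found for 46.7% of these pairs and for 14.2% of all pairs. The pairs share their mice, arrays and normalisation, and the values are a description. The median was 0.44 without HET 4, 0.58 without KO 3 and 0.45 without both, where it was 0.04 for all pairs.

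Members differed in how closely they followed the mevalonate and sterol genes. The median correlation with those genes was 0.72 for Lss, 0.68 for Mvk, 0.66 for Hmgcs1 and 0.66 for Nsdhl. It was near 0 for Ebp at -0.01, Idi1 at -0.02 and Insig1 at -0.01. Srebf2 had 0.22, Srebf1 0.31 and Stard4 0.53. Fatty acid members were divided, with 0.59 for Elovl6 and 0.40 for Acaca but -0.13 for Fads2 and -0.15 for Scd2. The closest pairs included Hmgcs1 with Pmvk at 0.93, Lss with Nsdhl at 0.92 and, across roles, Elovl6 with Nsdhl at 0.92. Among pairs of fatty acid members the median was 0.18.

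**Figure D4:**
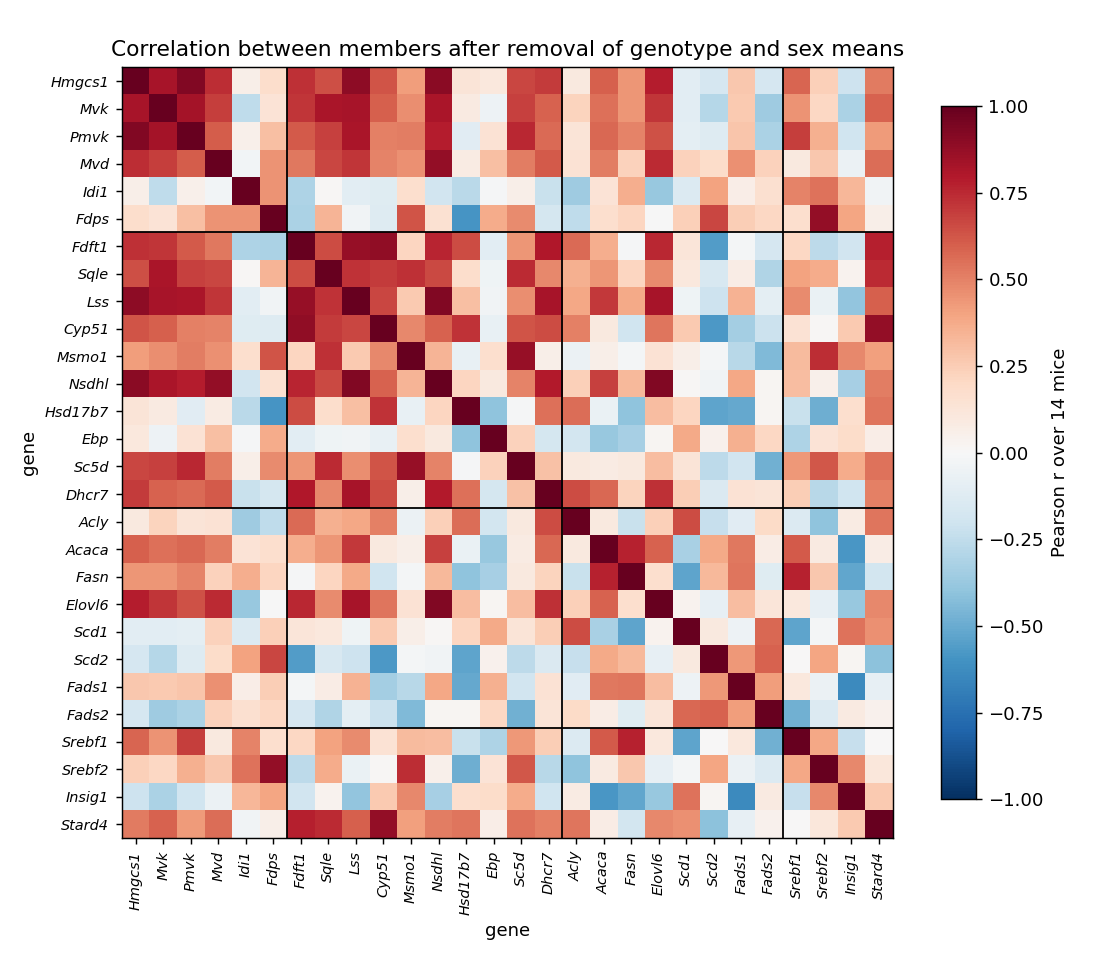
Pearson correlation over 14 mice between each pair of the 28 measured members after removal of group and sex means, from -1 (blue) to 1 (red), with black lines between the roles in the order mevalonate, squalene and sterol, fatty acid, and regulators and transport. The mevalonate and sterol block is mostly red (median 0.47), while Idi1, Hsd17b7 and Ebp inside it and Fads2 and Scd2 outside it are pale or blue against most of its genes.

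Most members had lower estimates in males than in females. In the sex term of the same fit 24 of 28 members were negative with a median of -0.09, where 48.9% of all tested genes were negative with a median of 0.00. In limma 0 of 28 members passed an adjusted p of 0.05, and 0.0293% of all tested genes did. At an unadjusted p under 0.05 it was 6 members, Msmo1, Fads2, Sqle, Nsdhl, Mvk and Cyp51, or 21.4%, against 6.38% of all tested genes. All 6 were lower in males, and 3.73% of all tested genes were lower in males by that rule.

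Msmo1 had the smallest p among them, with a change of -0.29 (SE 0.07, adjusted p = 0.513, limma), followed by Fads2 with -0.21 (SE 0.05, adjusted p = 0.513, limma). All 16 mevalonate and sterol members had negative estimates, and with 1 array left out 14 to 16 of them did. Of these members, Nsdhl and Ebp lie on chromosome X. HET 4, the mouse with the lowest mean, is male, and without it 22 of 28 members were negative and 2 had an unadjusted p under 0.05, with a median of -0.06. Without HET 1, also male, 25 were negative and 11 had an unadjusted p under 0.05, with a median of -0.14. Without KO 3 and HET 4 together 19 of 28 were negative, with a median of -0.03.

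Among 5 lists of other lipid genes, with 8, 16, 6, 17 and 15 tested genes, 1 gene passed in KO against WT. Of all tested genes 2.44% passed, so this count gives no excess for these lists. Cyp27a1, a mitochondrial sterol hydroxylase whose products activate the oxysterol receptor LXR, had 8.79, 7.47, 8.32, 7.99 and 7.70 in KO 1 to KO 5, 8.74, 8.75, 8.67, 8.82 and 8.85 in HET 1 to HET 5, and 8.91, 8.88, 9.04 and 9.23 in WT 1 to WT 4. Every KO mouse lay below every WT mouse, and KO 1 lay among the HET mice. It fell by 0.96 in KO (SE 0.21, adjusted p = 0.0328, limma) and was 1 of 6 tested genes of the LXR and sterol efflux list to pass.

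The Cyp27a1 call held in 9 of 14 fits that left out 1 array (limma adjusted p from 0.00239 to 0.143), being lost without KO 4 or without any 1 of the WT mice. It was also lost with the mean of its probe sets (-0.60, adjusted p = 0.195, limma).

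None of 8 tested genes of other sterol synthesis passed, with a median of -0.03 and the smallest p for the ferredoxin gene Fdx1 at 0.25 (SE 0.11, adjusted p = 0.335, limma). None of 16 genes of SREBP processing and sterol transport passed, with a median of 0.01 and the smallest p for the sterol transporter gene Gramd1b at 0.41 (SE 0.14, adjusted p = 0.160, limma). Of 17 other fatty acid synthesis genes none passed, with a median of 0.04, and Acss2, which makes acetyl-CoA from acetate, had the smallest p at 0.49 (SE 0.19, adjusted p = 0.258, limma).

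Fatty acid oxidation, which breaks down what these enzymes build, had no called gene among 15. All 15 estimates were positive in KO, from 0.00 to 0.28 with a median of 0.12, where 49.0% of all tested genes were positive with a median of -0.00. Without KO 3, 13 of 15 were positive and the median was 0.06. Etfdh, which passes electrons from oxidation to ubiquinone, had the smallest p at 0.22 (SE 0.07, adjusted p = 0.173, limma). Without KO 3 and WT 4 together 10 of the 15 were positive, with a median of 0.08. In HET against WT 0 genes of the 5 lists passed in limma, and at an unadjusted p under 0.05 it was 1, in the list of other sterol synthesis. Of all tested genes 0% and 2.74% did.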

How the data were processed

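The deposited values are log2 intensities that the authors made with RMA, per the submitters' processing notes; its version, and whether all arrays were normalised together, are not given in the sources used here. Such values fix the overall distribution of each array, so a shift common to all genes cannot be seen in them, and bright probe sets near saturation can understate differences. Per the labels' protocols, 25 ng of RNA was amplified and 3.75 ug of cDNA hybridised. Array medians lay between 6.42 and 6.46.

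Of 45101 probe sets, 64 were controls, 34945 named 1 gene, 932 named several and 9160 are unnamed here. By gene identifier 34741 probe sets matched RefSeq, and 0 symbols changed. Each gene took its brightest single-gene probe set by the mean over 14 arrays. A gene entered the tests if its mean was above 6.43, the midpoint of all probe sets other than controls, and 10225 genes did. In R 4.3.3, limma 3.58.1 (lmFit, eBayes) was fitted to all arrays with group and sex, or the number of floxed alleles and sex, with Benjamini-Hochberg adjustment across the tested genes in each of 5 comparisons. Each array is 1 mouse.

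The members and lists were chosen with earlier results of these data known. Members named with values in every array were those called in any comparison, the 3 with the smallest p in KO against WT, HET against WT and KO against HET, the 2 with the smallest p in KO against WT within each role, and Srebf1, Srebf2, Insig1 and Hmgcs1. From the 5 other pathway lists, genes called in KO against WT or HET against WT and the gene of each with the smallest p in KO against WT were named.

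On simulated data over 10225 genes, KO changes of 0.5 and 1 were found for 57% and 97% of altered genes in KO against WT. In HET against WT, which was given a smaller shift in the simulation, the shares were 9% and 50%. In KO against HET they were 11% and 62%, and in the trend 56% and 96%. Both simulated KO changes are larger than the largest member estimate in KO against WT, 0.41. The shares therefore do not give the recovery of changes of the members' size. The alternatives covered the low-signal filter, the choice of probe set, normalisation, sex, eBayes options, array weights, the samples fitted, the replicate number, the threshold and single arrays; leaving out pairs of arrays, and all alternatives for Cyp27a1, were added after seeing the data. No 2 arrays shared more than 58 identical values. The number of arrays limits the precision.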

Additional observations from a re-analysis of the deposited data

Results flagged for a closer look

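Among 99 groups of 4 or 5 mice examined, for 28 members and 5 means over members, 4 held a mouse whose gap to its nearest neighbour exceeded Dixon's critical value, where chance gives about 1 in 20. Mvk in KO 3 had a log2 intensity of 9.00, above the nearest KO mouse at 8.59. Sc5d in KO 5 had 10.20, below the nearest at 10.30. Srebf2 in HET 4 had 11.62, below the nearest HET mouse at 11.82. Insig1 in WT 4 had 12.10, below the other WT mice, of which the nearest had 12.41.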

How the results depend on the processing

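Counts of members called moved under few settings. In KO against WT the 1 member became 0 without the sex covariate, in females only and without KO 3 and WT 4 together. In the trend it became 0 in females only and without KO 3 and WT 4 together, and 2 at a threshold of 0.10, with 1 to 2 when 1 array was left out; the second was Elovl6, without KO 2. The 249 genes called over the array in KO against WT became 117 under the stricter filter, 79 in females, 98 with only the groups compared, 424 at 0.10 and 75 without KO 3 and WT 4, and ran from 130 (without WT 4) to 259 when 1 array was left out. In HET against WT the 0 genes became 6 with array weights and ran from 0 to 0 when 1 array was left out. In KO against HET the 27 genes became 2 without a filter, 4 under the stricter filter, 0 in females, 72 with array weights, 5 with only the groups compared, 48 at 0.10, 13 without KO 3 and WT 4 and 9 without KO 3 and HET 4, and ran from 0 (without HET 1) to 25. The 311 genes of the trend became 151 under the stricter filter, 113 in females, 198 with array weights, 508 at 0.10 and 85 without KO 3 and WT 4, and ran from 164 to 300. The 3 genes of the sex term became 5 without a filter, 1 under the stricter filter, 1 with the mean of probe sets and 5 with trend and robust options, and ran from 2 to 3. Fewer arrays or genes were fitted in several of these, and otherwise the cause was not tested. The mean of the members, KO minus WT, ran from 0.01 to 0.06 and HET minus WT from -0.02 to 0.05 when 1 array was left out. Cyp27a1 also lost its call in KO without a filter (adjusted p = 0.0517), with only the groups compared (0.158) and without KO 3 and WT 4 (0.159), by limma.

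With the replicate number as a block, the count was 1 in HET against WT, 16 in KO against HET and 198 in KO against WT over all genes; Fads2 kept 0.41 in KO (adjusted p = 0.0184, limma) and Cyp27a1 had -0.90 (adjusted p = 0.0823, limma). Whether numbers pair mice is not settled: 13 pairs of mice with the same number had correlations of -0.17 to 0.38, 9 of them over 0.1. Their median was 0.14, against -0.06 for pairs with different numbers, which ran from -0.37 to 0.58.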
